A study of Homo sapiens with 9 samples.

Results

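The 10 genes described here were the 4 CLK kinases (CLK1, CLK2, CLK3 and CLK4), 5 SR splicing factors (SRSF2, SRSF3, SRSF5, SRSF6 and SRSF7) and the SR-like factor TRA2A. They were picked by symbol from 36343 genes in the table, with their differences between the gels already known from earlier results of the same libraries. Gene levels and gene differences are therefore given as a description without p-values. The cells were SKOV-3, a human epithelial ovarian cancer line, grown for 3 days on dishes coated with hydrogel of 0.5, 4 or 25 kPa, a measure of stiffness. There were 3 RNA-seq libraries per gel and no other treatment, so that all groups were cells of a single line on soft to stiff gels and none came from standard plastic. On the 0.5 and 4 kPa gels the libraries are numbered 1, 2 and 3, and on the 25 kPa gel 2, 3 and 4. The series asked how the stiffness of the surface changes the cells.

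CLK kinases are nuclear enzymes that add phosphate groups to the arginine-serine tails of SR proteins. SR proteins bind short sequences in exons and help the spliceosome choose splice sites, and their phosphorylation governs where they sit in the nucleus and whether they can act. Both families control their own mRNA: many of these genes make transcripts with an early stop codon or a retained intron, which code for no full protein and are often destroyed by nonsense-mediated decay (NMD) or held in the nucleus.

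The exons that set these transcripts apart are shown because the transcript results below turn on them. In CLK1 and CLK4 the switch is exon 4, which is skipped in part of the RNA. Positions are those of hg38, transcript models are GENCODE version 29, and each sequence is written in the direction of transcription. Exon 4 of CLK1 lies at chr2:200860125-200860215 on the minus strand, and exon 4 of CLK4 at chr5:178617344-178617434, also on the minus strand. Capitals mark the bases that differ, 6 of 91, so that the exons are 93.4% identical:
CLK1 exon 4: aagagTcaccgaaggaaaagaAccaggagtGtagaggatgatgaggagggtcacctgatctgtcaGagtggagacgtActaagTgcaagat
CLK4 exon 4: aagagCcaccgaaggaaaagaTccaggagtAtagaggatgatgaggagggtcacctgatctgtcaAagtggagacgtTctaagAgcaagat

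In CLK1-204, the annotated NMD transcript, the loss of exon 4 shifts the reading frame, and the coding sequence ends within the next exon. The first bases of that exon are shown up to the stop codon in capitals (chr2:200859726-200859746, minus strand). The coding sequence is 408 bases long in CLK1-204 and 1452 bases in CLK1-201, which holds exon 4. CLK1-215 also lacks exon 4 but is annotated as coding, with 1362 coding bases.
CLK1 exon 5 to its stop in CLK1-204: atgaaattgttgatacttTAG

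In SRSF6 and SRSF3 the switch works the other way round, because an extra exon carries the stop and is called a poison exon. That of SRSF6 is 268 bases long (chr20:43459153-43459420, plus strand) and that of SRSF3 456 bases (chr6:36599821-36600276, plus strand). Both are shown from their first base to the stop codon in capitals:
SRSF6 poison exon: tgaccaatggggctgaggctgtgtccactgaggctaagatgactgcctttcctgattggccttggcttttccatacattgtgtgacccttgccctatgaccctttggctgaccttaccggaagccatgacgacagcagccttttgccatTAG
SRSF3 poison exon: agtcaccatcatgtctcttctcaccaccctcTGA

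**Figure D1:**
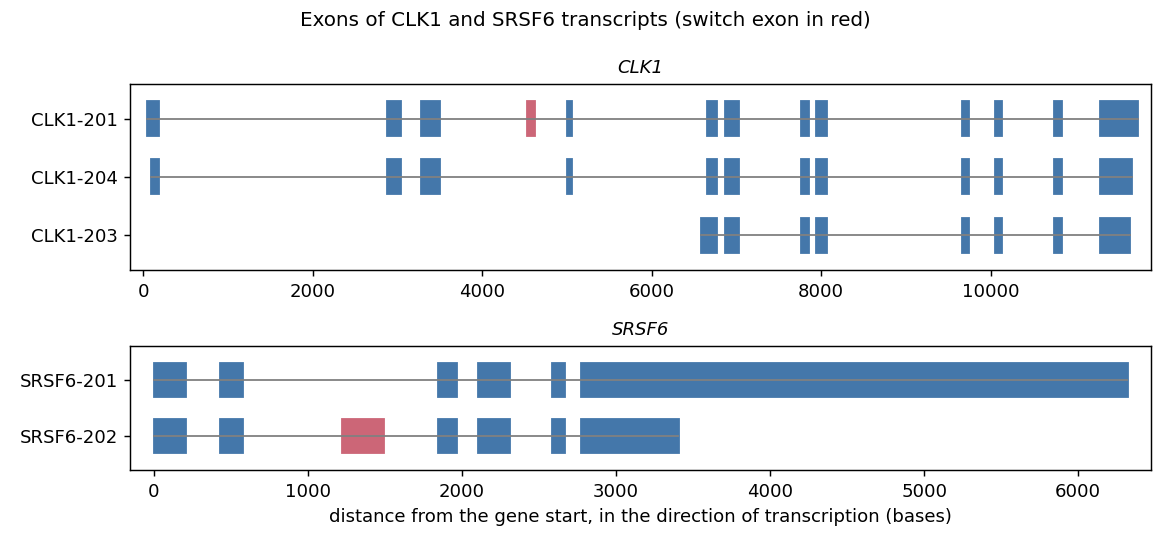
Exon maps of the CLK1 transcripts CLK1-201, CLK1-204 and CLK1-203 and of the SRSF6 transcripts SRSF6-201 and SRSF6-202, drawn to scale by distance from the gene start in bases. Boxes are exons, lines are introns and red boxes are the switch exons; exon 4 is missing from CLK1-204, and the poison exon is present in SRSF6-202.

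The libraries held 19609740 to 21033433 gene counts. Counts of mitochondrial genes made up 5.21 to 5.74% of the 0.5 kPa libraries, 3.99 to 4.41% of the 4 kPa libraries and 4.15 to 4.60% of the 25 kPa libraries. The spread within each gel exceeded counting error (chi-square per degree of freedom 3.08 to 24.5), and the libraries numbered 3 on the 0.5 and the 4 kPa gel stood apart from the others of their gels. The epithelial and ovarian markers of the line were present in all 9 libraries, with 58113 to 84844 counts of ERBB2, 9431 to 14193 of KRT8, 3635 to 4657 of PAX8 and 712 to 973 of EPCAM. The leukocyte markers CD3E and PTPRC had 0 and at most 3 counts, and the fibroblast marker DCN at most 3. The endothelial markers PECAM1 and VWF had 8 to 40 and 2 to 14 counts, and COL1A1, a collagen of stromal cells, had 661 to 862. Of the 9 markers that could be tested, KRT7, a keratin, was higher on 4 than on 0.5 kPa (log2 difference 1.16, edgeR adjusted p = 2.9e-05) and lower on 0.5 than on 25 kPa (-1.47, adjusted p = 6.21e-06). ERBB2 (0.44, adjusted p = 0.0163) and PECAM1 (1.64, adjusted p = 0.0113) were higher and VWF (-1.70, adjusted p = 0.0372) lower on 0.5 than on 25 kPa in the same test. These 3 calls were lost without 0.5 kPa library 2, those of ERBB2 and PECAM1 also without 25 kPa library 4, that of ERBB2 without 25 kPa library 2, and that of VWF without 0.5 kPa library 3, 4 kPa library 1 or 2 or 25 kPa library 3 (highest adjusted p 0.185, 0.0663 and 0.341 for ERBB2, PECAM1 and VWF).

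All 10 genes passed the filter on low counts. In FPKM, which corrects for gene length, SRSF3 stood highest with a mean of 61.1 over the 9 libraries, followed by SRSF2 (59.4), SRSF6 (53.8), SRSF7 (40.0), SRSF5 (29.4), CLK1 (13.1), TRA2A (12.1), CLK2 (7.61), CLK4 (2.13) and CLK3 (1.71). SRSF2, SRSF3 and SRSF6 overlapped over the libraries, with 50.4 to 65.1, 54.3 to 66.4 and 48.3 to 65.0 FPKM. CLK1 and TRA2A overlapped because CLK1 ran from 7.97 to 18.0 FPKM and TRA2A from 11.1 to 12.8. The place of CLK3 depends on the length used: the gene value divides by 20443 bases of merged exons, and its transcripts summed to a mean of 17.8 FPKM, rank 6 of the 10 genes. By that sum CLK1 had 22.5 FPKM (rank 5) and SRSF6 17.1 FPKM (rank 7), so the order of the members differs between the gene and the transcript values.

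CLK1 (ENSG00000013441, chromosome 2, 200853009 to 200864744, minus strand) is the kinase best known for phosphorylating SR proteins, and its level changed most between the gels among the 10 genes. In CPM, read counts scaled to a common library size, CLK1 had 80.8, 82.1 and 92.0 CPM in the 0.5 kPa libraries, 40.4, 43.2 and 43.7 CPM in the 4 kPa libraries and 73.8, 80.9 and 75.0 CPM in the 25 kPa libraries. The highest library on 4 kPa lay far below the lowest of the 6 others. The log2 difference was -1.0 ± 0.08 (SE) for 4 against 0.5 kPa, a fold of 0.499, and -0.85 ± 0.08 for 4 against 25 kPa, a fold of 0.555. The 0.5 and 25 kPa gels differed by 0.15 ± 0.08, and their ranges overlapped. These values rest on 808 to 1921 counts per library. Each library holds the RNA of a whole culture, so a lower level per cell and fewer cells with the transcript cannot be told apart.

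CLK4 (ENSG00000113240, chromosome 5, 178602664 to 178630615, minus strand) is the close relative of CLK1 and was low on the same gel. It had 18.4, 20.3 and 22.4 CPM in the 0.5 kPa libraries, 11.9, 11.3 and 13.6 CPM in the 4 kPa libraries and 17.5, 18.9 and 17.9 CPM in the 25 kPa libraries. Again the 4 kPa libraries lay below all others, with a log2 difference of -0.73 ± 0.10 against 0.5 kPa (fold 0.604) and -0.56 ± 0.10 against 25 kPa (fold 0.679). The difference between 0.5 and 25 kPa was 0.17 ± 0.10. Reads from stretches shared with CLK1, such as exon 4, may be hard to assign, and CLK4 rests on 231 to 467 counts, so that its values are less certain than those of CLK1.

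CLK2 and CLK3, the kinases less like CLK1 in sequence, had no lower level on 4 kPa than on the other gels. CLK2 (ENSG00000176444, chromosome 1, 155262868 to 155278491, minus strand) had 26.9, 28.5 and 27.9 CPM in the 0.5 kPa libraries, 32.4, 31.0 and 26.8 CPM in the 4 kPa libraries and 27.1, 23.2 and 27.6 CPM in the 25 kPa libraries. The 4 kPa range overlapped both others, and the log2 differences were 0.11 ± 0.09 against 0.5 kPa and 0.21 ± 0.09 against 25 kPa. CLK3 (ENSG00000179335, chromosome 15, 74598500 to 74645414, plus strand) had 34.4, 34.6 and 32.1 CPM in the 0.5 kPa libraries, 36.2, 36.4 and 39.3 CPM in the 4 kPa libraries and 38.0, 32.7 and 31.9 CPM in the 25 kPa libraries. All 4 kPa libraries of CLK3 lay above those of 0.5 kPa but not above those of 25 kPa, with differences of 0.15 ± 0.08 and 0.13 ± 0.08. CLK3 shares 701 exonic bases with EDC3 on the opposite strand, and whether the counting used strand is not stated.

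**Figure D2:**
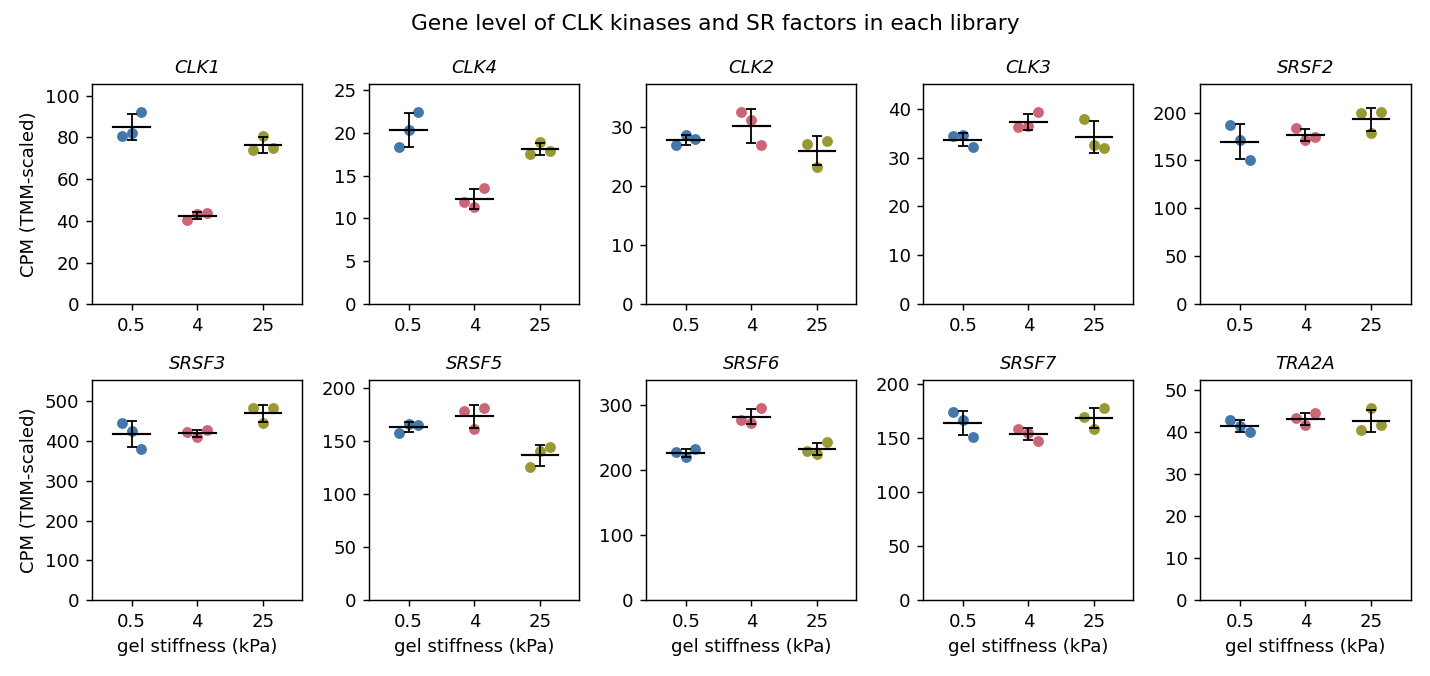
Level of each of the 10 genes in every library, in CPM, by gel stiffness in kPa, with the mean and SD of the 3 libraries of each gel as bars. CLK1 and CLK4 lie below all other libraries on 4 kPa and SRSF6 lies above them, while the other 7 genes overlap at least 1 other gel.

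SRSF6 (ENSG00000124193, chromosome 20, 43457928 to 43464247, plus strand), an SR protein that promotes exon inclusion, was the only member above both other gels in every 4 kPa library. It had 228, 221 and 233 CPM in the 0.5 kPa libraries, 278, 273 and 295 CPM in the 4 kPa libraries and 230.1, 225 and 243 CPM in the 25 kPa libraries. The size was modest, with log2 differences of 0.31 ± 0.07 against 0.5 kPa (fold 1.24) and 0.28 ± 0.07 against 25 kPa, and -0.03 ± 0.07 between 0.5 and 25 kPa.

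SRSF5 (ENSG00000100650, chromosome 14, 69726900 to 69772005, plus strand), another SR protein, was lowest on the stiffest gel instead. It had 157, 166 and 165 CPM in the 0.5 kPa libraries, 178, 161 and 180.4 CPM in the 4 kPa libraries and 125, 140.2 and 144 CPM in the 25 kPa libraries. The 25 kPa libraries lay below all 6 others. The log2 difference was 0.34 ± 0.08 for 4 against 25 kPa, 0.25 ± 0.08 for 0.5 against 25 kPa and 0.09 ± 0.08 for 4 against 0.5 kPa.

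SRSF3 (ENSG00000112081, chromosome 6, 36594353 to 36605600, plus strand), a small SR protein with roles in splicing and mRNA export, leaned the other way. It had 445, 426 and 381 CPM in the 0.5 kPa libraries, 422, 410.5 and 427 CPM in the 4 kPa libraries and 482, 445 and 482 CPM in the 25 kPa libraries. The 25 kPa libraries lay above those of both softer gels, by a log2 difference of -0.16 ± 0.08 for 4 against 25 kPa and -0.17 ± 0.08 for 0.5 against 25 kPa, and the lowest 25 kPa library was less than 1 CPM above the highest 0.5 kPa library.

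SRSF2 (ENSG00000161547, chromosome 17, 76734115 to 76737374, minus strand), the SR protein also called SC35, had 187, 172 and 150 CPM in the 0.5 kPa libraries, 184, 172 and 174 CPM in the 4 kPa libraries and 199, 179 and 200.2 CPM in the 25 kPa libraries. The ranges of all 3 gels overlapped, and the differences were -0.13 ± 0.08 for 4 against 25 kPa and -0.19 ± 0.08 for 0.5 against 25 kPa. SRSF2 is the member whose counts are most open to an overlapping gene, since 36.7% of its exonic bases are also exonic in MFSD11 on the opposite strand.

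SRSF7 and TRA2A had overlapping ranges on all gels. SRSF7 (ENSG00000115875, chromosome 2, 38743599 to 38751494, minus strand), an SR protein with a zinc knuckle, had 174, 166 and 151 CPM in the 0.5 kPa libraries, 159, 155 and 148 CPM in the 4 kPa libraries and 169, 158 and 177 CPM in the 25 kPa libraries. TRA2A (ENSG00000164548, chromosome 7, 23504780 to 23532041, minus strand), an SR-like activator of exon inclusion, had 43.0, 41.4 and 40.1 CPM in the 0.5 kPa libraries, 43.3, 41.6 and 44.5 CPM in the 4 kPa libraries and 40.6, 45.7 and 41.8 CPM in the 25 kPa libraries. The log2 differences were -0.09 ± 0.07 and -0.13 ± 0.07 for SRSF7 and 0.06 ± 0.07 and 0.02 ± 0.07 for TRA2A, each for 4 against 0.5 kPa and for 4 against 25 kPa.

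**Figure D3:**
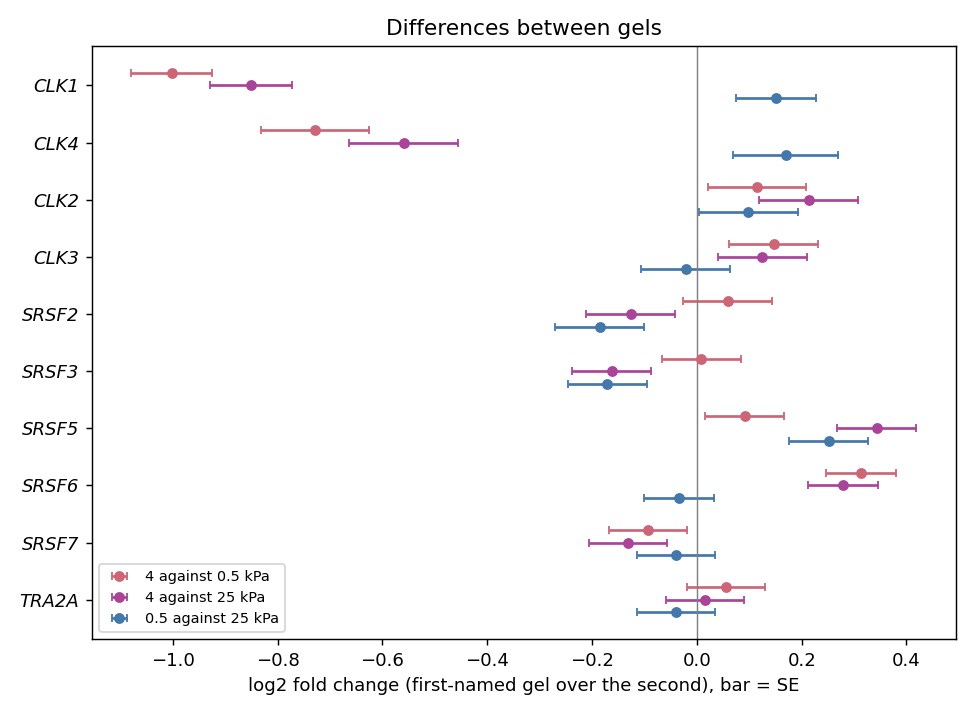
Log2 difference of each of the 10 genes for 4 against 0.5 kPa, 4 against 25 kPa and 0.5 against 25 kPa, with the first-named gel over the second and bars of 1 SE. CLK1 and CLK4 lie below 0 in both comparisons of the 4 kPa gel, at -1.0 and -0.85 and at -0.73 and -0.56.

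At an adjusted p of 0.05 in the edgeR quasi-likelihood test across 16335 genes, 3 of the 10 genes were called for 4 against 0.5 kPa (CLK1 and CLK4 lower, SRSF6 higher), where 2.05% of all genes were called, 1.13% higher and 0.924% lower. For 4 against 25 kPa the calls were CLK1 and CLK4, both lower, where 0.9% of all genes were called and 0.465% were called lower. None was called for 0.5 against 25 kPa, where 6.69% of all genes were called, and 3 of the 10 had an unadjusted p under 0.05, beside 22.9% of all genes. Against the midpoint of the 0.5 and 25 kPa gels, CLK1 (-0.93 ± 0.07) and CLK4 (-0.64 ± 0.09) were called lower and SRSF6 (0.30 ± 0.06) higher on 4 kPa, where 0.637% of all genes were called, 0.392% higher and 0.245% lower. These 3 genes were also those whose 4 kPa libraries stood clear of the 6 others, which held for 4.47% of all genes, 2.02% higher and 2.45% lower. Ranges did not overlap in 4 of the 10 genes for 4 against 0.5 kPa, 5 for 4 against 25 kPa and 2 for 0.5 against 25 kPa, beside 18.4, 20.1 and 30.3% of all genes. Nothing is read from these counts, because the genes were chosen with the differences known, and the comparisons share libraries. The median log2 difference of the 10 genes was 0.06, -0.06 and -0.03 for 4 against 0.5 kPa, 4 against 25 kPa and 0.5 against 25 kPa, and -0.01, -0.01 and 0.00 over all genes.

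How the calls depended on the settings and libraries is given as a description, not as support, since the genes were chosen on these differences. CLK1 was called in every alternative of both comparisons of the 4 kPa gel, with log2 differences from -1.04 to -0.91 against 0.5 kPa and from -0.88 to -0.73 against 25 kPa. CLK4 was called against 0.5 kPa in every alternative (-0.81 to -0.48). Against 25 kPa it lost the call when 0.5 kPa library 2, 4 kPa library 1, 4 kPa library 2 or any of the 3 libraries on 25 kPa was left out, which left CLK1 as the 1 gene called, while its difference stayed between -0.64 and -0.33 over all alternatives. SRSF6 lost its call against 0.5 kPa without 0.5 kPa library 1 or 2, 4 kPa library 1 or 2 or 25 kPa library 4, which left 2 genes called, with differences between 0.28 and 0.34 over all alternatives. Without 0.5 kPa library 3 the genes called for 4 against 25 kPa were 4, with SRSF5 (0.28 to 0.41 over all alternatives) and SRSF6 (0.24 to 0.32) added, and without 4 kPa library 3 SRSF5 was the 1 gene called for 0.5 against 25 kPa.

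Over the 9 libraries, the log2 CPM of CLK1 and CLK4 ran together with a Pearson r of 0.974, and CLK4 ranked second among the 11242 genes that averaged 5 CPM or more. The gene most like CLK1 was TMA16, with an r of 0.978. The next were ZNF681 (0.969), a zinc finger gene, CWF19L2 (0.961), named after a yeast splicing factor, SFR1 (0.956), a partner in homologous recombination, and NDUFA5 (0.952), a subunit of respiratory complex I. SRSF6 was near the opposite end with an r of -0.938, rank 11233. SRSF2 and SRSF3 formed a second pair, with an r of 0.945. The points share libraries and gels, so these values describe likeness over 3 gels and carry no test.

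The genes most like CLK1 moved by smaller steps than CLK1 itself. TMA16, the gene with the highest r, had log2 differences of only -0.24 ± 0.08 for 4 against 0.5 kPa and -0.17 ± 0.08 for 4 against 25 kPa. ZNF681 had 14.7, 16.2 and 15.5 CPM in the 0.5 kPa libraries, 9.45, 10.5 and 10.3 CPM in the 4 kPa libraries and 13.1, 15.9 and 15.3 CPM in the 25 kPa libraries. CWF19L2 had 21.7, 20.9 and 21.9 CPM in the 0.5 kPa libraries, 13.5, 14.3 and 16.4 CPM in the 4 kPa libraries and 19.4, 19.5 and 20.5 CPM in the 25 kPa libraries. Both lay lower on 4 kPa in every library, as the choice by likeness to CLK1 requires.

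RefSeq promoter entries (GRCh38) matched 8 of the 10 genes, not SRSF2 and TRA2A. In the 250 bases before the start of CLK1 and of CLK4, the letters TGACG, the core of a cAMP response element, occurred 1 time each on either strand, as in 21.7% of 27305 promoters. GGGCGG, a GC box, occurred 2 times in each and in 42.3% of all promoters, and neither window held CCAAT or TGACTCA, which 33.0% and 4.16% of promoters hold. Neither TGACG nor GGGCGG was particular to CLK1 and CLK4. TGACG also occurred 1 time each in SRSF3 and SRSF5, and GGGCGG 2 times each in CLK2, SRSF6 and SRSF7.

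The transcript table gives a second readout, namely how the RNA of each gene was divided among its transcripts. The choice of genes did not use this measure, but it comes from the same libraries as the gene levels and is not independent of them. The 10 genes had 117 transcripts, and 60 of them were measured well enough to test. For each, the log2 ratio of its FPKM to that of the other transcripts of its gene was compared between gels with limma across 30443 transcripts. No member transcript was called in any comparison, where 0.0526, 0.0427 and 0.0788% of all transcripts were called for 4 against 0.5 kPa, 4 against 25 kPa and 0.5 against 25 kPa, and 0.0493% against the midpoint. At an unadjusted p under 0.05 there were 3, 11 and 3 of the 60, and 6 against the midpoint, beside 5.45, 6.35, 6.02 and 5.72% of all transcripts. The lowest limma adjusted p of a member transcript was 0.877, 0.601, 0.8 and 0.619 in the same order. Without 25 kPa library 3 SRSF2-205 was called in the last 3 of these comparisons, and without 25 kPa library 4 SRSF7-201 for 4 and for 0.5 against 25 kPa, 1 transcript each time. In the 25 kPa libraries SRSF2-205 had 0.0, 3.97 and 0.0 FPKM and SRSF7-201 0.098, 0.33 and 8.30 FPKM. Each call thus rests on 25 kPa estimates at or near the floor. The shares are estimates over exons that transcripts have in common and varied widely within gels, so a missed threshold does not show equal shares.

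CLK1-204, the NMD transcript without exon 4, was the main CLK1 transcript with a mean of 41.6% of the gene. It made up 48.8, 50.4 and 50.0% of CLK1 in the 0.5 kPa libraries, 20.9, 41.7 and 33.0% in the 4 kPa libraries and 50.4, 40.1 and 38.8% in the 25 kPa libraries. The 4 kPa shares lay below those of 0.5 kPa but overlapped those of 25 kPa. The log2 ratio difference was -1.10 ± 0.41 for 4 against 0.5 kPa (unadjusted p = 0.0273, limma adjusted p = 0.877) and -0.72 ± 0.41 for 4 against 25 kPa (adjusted p = 0.83), so neither passed the test. In FPKM the transcript had 11.5, 10.8 and 15.9 in the 0.5 kPa libraries, 3.03, 5.28 and 4.01 in the 4 kPa libraries and 13.3, 11.2 and 12.4 in the 25 kPa libraries.

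The other CLK1 transcript above 10% was CLK1-203, a short coding transcript that starts within the gene. It took 12.7, 11.9 and 30.4% of the gene in the 0.5 kPa libraries, 38.4, 10.6 and 19.2% in the 4 kPa libraries and 9.81, 30.1 and 47.2% in the 25 kPa libraries, so the spread within each gel was as wide as any difference between them. Among transcripts that either hold or skip exon 4, the share without it was 82.4, 85.5 and 98.8% in the 0.5 kPa libraries, 82.6, 86.9 and 79.8% in the 4 kPa libraries and 73.2, 84.7 and 95.3% in the 25 kPa libraries. Among these transcripts skipping prevailed in all 9 libraries, and its share overlapped between all gels. They averaged 13.4, 4.61 and 12.8 FPKM without the exon and 1.60, 0.94 and 2.57 FPKM with it on 0.5, 4 and 25 kPa. The values without it include the coding transcript CLK1-215, with 0.63, 0.51 and 0.56 FPKM, so not all skipping is of the NMD form. The share leaves out transcripts that do not span exon 4 (7.56, 5.33 and 10.2 FPKM) and those in which it lies inside a retained intron (3.08, 2.20 and 3.16 FPKM).

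CLK4 was split mainly between the retained-intron transcript CLK4-203 (33.1% on average) and the coding transcript CLK4-201 (26.9%). CLK4-203 took 20.2, 47.3 and 26.9% in the 0.5 kPa libraries, 10.6, 18.8 and 36.4% in the 4 kPa libraries and 63.7, 47.8 and 26.5% in the 25 kPa libraries, and its log2 ratio difference for 4 against 25 kPa was -1.59 ± 0.76 (limma adjusted p = 0.811). The share of exon 4 skipping among CLK4 transcripts that either hold or skip it was 6.10, 23.3 and 16.9% in the 0.5 kPa libraries, 43.7, 23.0 and 44.4% in the 4 kPa libraries and 15.7, 22.7 and 10.8% in the 25 kPa libraries. These shares rest on low values, at most 2.36 FPKM with exon 4 and at most 1.10 FPKM without it in any library, and 4 kPa library 2 sat among the libraries of the other gels. The 4 kPa libraries 1 and 3 lay above all others. Among these transcripts exon 4 was kept more often than skipped in every library, the reverse of CLK1. The share leaves out transcripts in which exon 4 lies inside a retained intron, CLK4-203 among them, which averaged 2.47, 1.30 and 2.78 FPKM on 0.5, 4 and 25 kPa, beside 1.78, 1.09 and 1.17 FPKM with the exon, and transcripts that do not span it.

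CLK2 and CLK3 held large shares of transcripts that code for no full protein. In CLK2 the processed transcript CLK2-207 took 27.2% on average and the coding CLK2-203 24.7%. In CLK3 the retained-intron transcript CLK3-206 was the largest with 34.9%, at 35.3, 36.4 and 34.4% in the 0.5 kPa libraries, 31.3, 29.9 and 36.0% in the 4 kPa libraries and 36.3, 38.1 and 36.3% in the 25 kPa libraries. Its log2 ratio difference was -0.20 ± 0.25 for 4 against 0.5 kPa (limma adjusted p = 0.952).

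SRSF6 had only 2 transcripts, the coding SRSF6-201 and SRSF6-202 with the poison exon, and the poison form was estimated as the larger with 54.6% on average. The 2 transcripts summed to a mean of 17.1 FPKM, against 53.8 FPKM for the gene. Why these values differ was not tested, so the shares are those of the transcript estimates alone. SRSF6-202 made up 48.1, 61.9 and 62.3% of the gene in the 0.5 kPa libraries, 49.4, 50.4 and 45.8% in the 4 kPa libraries and 59.3, 59.0 and 55.3% in the 25 kPa libraries. The 4 kPa shares lay below all 25 kPa libraries and below 0.5 kPa libraries 2 and 3, but not below library 1. The log2 ratio difference was -0.52 ± 0.31 for 4 against 0.5 kPa (limma adjusted p = 0.947) and -0.53 ± 0.31 for 4 against 25 kPa (adjusted p = 0.83), which did not pass the test.

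By level, the coding form SRSF6-201 had 8.59, 6.64 and 5.90 FPKM in the 0.5 kPa libraries, 9.75, 10.1 and 10.3 FPKM in the 4 kPa libraries and 6.19, 6.43 and 6.50 FPKM in the 25 kPa libraries. The poison form SRSF6-202 had 7.95, 10.8 and 9.76 FPKM in the 0.5 kPa libraries, 9.53, 10.3 and 8.71 FPKM in the 4 kPa libraries and 9.02, 9.26 and 8.04 FPKM in the 25 kPa libraries. The coding form was higher in every 4 kPa library, and the poison form overlapped on all 3 gels.

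**Figure D4:**
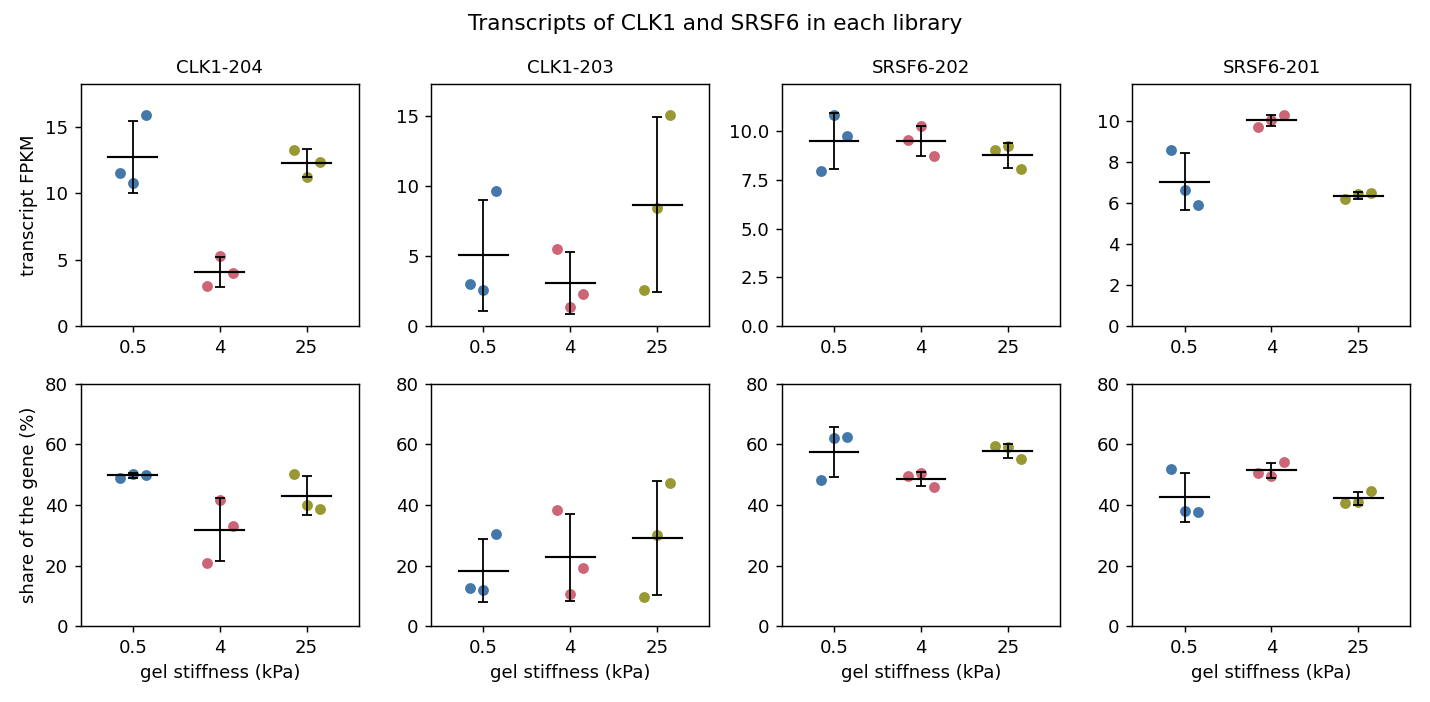
FPKM (upper panels) and percent of the summed transcript FPKM of the gene (lower panels) of CLK1-204, CLK1-203, SRSF6-202 and SRSF6-201 in every library by gel stiffness in kPa, with the mean and SD of 3 libraries. CLK1-204 is at 3.03 to 5.28 FPKM on 4 kPa, below all other libraries, while the shares of both genes' transcripts overlap between gels or fail the test.

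SRSF3 was made up mainly of the coding SRSF3-202, with 78.8% on average. This share was 82.5, 79.3 and 73.7% in the 0.5 kPa libraries, 71.8, 74.2 and 78.7% in the 4 kPa libraries and 84.1, 81.1 and 83.4% in the 25 kPa libraries, and the log2 ratio difference for 4 against 25 kPa was -0.69 ± 0.29 (limma adjusted p = 0.786). The poison exon was in 6.75 to 15.5% of the SRSF3 transcripts that either hold or skip it, a small part beside that of SRSF6. This share leaves out transcripts in which the exon lies inside a retained intron, and those that do not span it. The former averaged 3.06, 4.29 and 2.66 FPKM on 0.5, 4 and 25 kPa, beside 3.67, 3.17 and 3.61 FPKM with the exon. Most of SRSF2 was also coding, with 51.8% in SRSF2-202 and 20.3% in SRSF2-203. SRSF2-203 made up 19.1, 12.3 and 16.9% in the 4 kPa libraries, against 30.7, 20.9 and 35.8% in the 25 kPa libraries, where all values were higher, yet the log2 ratio difference of -1.08 ± 0.39 did not pass (limma adjusted p = 0.728).

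SRSF7 was the SR factor with the largest mean part annotated as NMD, 58.9%, with 52.4 to 66.2% over the 9 libraries. Its largest transcript, SRSF7-208, held 40.4% on average but 5.82% in 0.5 kPa library 2, where SRSF7-204, another NMD transcript, held 50.2%. The NMD transcripts together held 60.2% in that library, within the range of the others. SRSF5 was spread over 6 transcripts of at least 10% each, of which SRSF5-201 (coding, 17.0%) was the largest, and retained-intron forms took 34.3 to 48.8% of the gene. TRA2A was 69.9 to 80.1% coding, led by TRA2A-201 with 33.9% and TRA2A-212 with 22.0%.

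The other genes of the splicing machinery, grouped in 7 lists by role, are set beside the members as a description. Members and lists were chosen with earlier results of these libraries known, so no contrast between them is read as a result. None of the 8 other SR and Tra2 proteins was called in any comparison. Their log2 differences for 4 against 0.5 kPa ran from -0.18 for SRSF11 to 0.07 for SRSF4, and the median was 0.01, against -0.01 over all genes. At an unadjusted p under 0.05 there was 1 of the 8 for 4 against 0.5 kPa, 1 for 4 against 25 kPa and 0 for 0.5 against 25 kPa, beside 13.7, 14.8 and 22.9% of all genes.

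None of the 13 genes tested from a broad list of other kinases linked to SR proteins was called either. Among them were SRPK1 (0.02 ± 0.08 for 4 against 0.5 kPa), SRPK2 (-0.10 ± 0.07), PRPF4B (-0.14 ± 0.09) and DYRK1A (-0.15 ± 0.08). The list also held TOP1, AKT1, AKT2 and further DYRK and HIPK genes, and their action on SR proteins was not tested. SRPK3 did not pass the count filter. The median of the 13 genes was -0.10 for 4 against 0.5 kPa and -0.01 for 4 against 25 kPa. In each, 1 of the 13 had an unadjusted p under 0.05, beside the same 13.7 and 14.8% of all genes. Nor was any of the 28 hnRNP proteins, which often oppose SR proteins, or of the 45 genes of the core spliceosome called by edgeR. At that unadjusted threshold there were 1, 6 and 3 of the 28 hnRNP genes and 3, 11 and 7 of the 45 spliceosome genes for 4 against 0.5 kPa, 4 against 25 kPa and 0.5 against 25 kPa, where 13.7, 14.8 and 22.9% of all genes were. The medians for 4 against 25 kPa were -0.05 and -0.10.

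The list of 34 SR-related proteins, which carry arginine-serine stretches without being SR proteins proper, held 3 called genes for 4 against 0.5 kPa. All were lower, where 0.924% of all genes were called lower, and the median of the list was -0.09. LUC7L3, a relative of a U1 snRNP protein, had 180, 150 and 194 CPM in the 4 kPa libraries, against 240, 240 and 258 CPM in the 0.5 kPa libraries (log2 difference -0.49 ± 0.09, edgeR adjusted p = 0.014). PPIG, a cyclophilin with an arginine-serine tail, had 99.5, 94.6 and 108 CPM in the 4 kPa libraries, against 131, 140 and 137 CPM in the 0.5 kPa libraries (-0.44 ± 0.09, adjusted p = 0.0189). PNISR, an SR-rich nuclear protein, had 146, 126 and 138 CPM in the 4 kPa libraries, against 174, 172 and 189 CPM in the 0.5 kPa libraries (-0.38 ± 0.09, adjusted p = 0.0363). The groups did not overlap in any of the 3 genes.

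LUC7L3 and PNISR were also higher on 0.5 than on 25 kPa (0.33, adjusted p = 0.0495, and 0.34, adjusted p = 0.0315, edgeR). They were the 2 calls of that list in that comparison, where 6.69% of all genes were called. At an unadjusted p under 0.05 there were 10, 5 and 8 of the 34 for 4 against 0.5 kPa, 4 against 25 kPa and 0.5 against 25 kPa. The shares of all genes were 13.7, 14.8 and 22.9%. PPIG was the 1 gene of the list called against the midpoint (-0.37, adjusted p = 0.0481), where 0.637% of all genes were called. For 4 against 25 kPa, where 0.9% of all genes were called, the 1 call was CCNL1, a cyclin that binds splicing-linked kinases. It was higher, with 120, 97.8 and 96.3 CPM in the 4 kPa libraries, against 69.0, 77.8 and 76.5 CPM in the 25 kPa libraries (0.49 ± 0.10, edgeR adjusted p = 0.04). These calls are near the threshold. LUC7L3 lost the one for 4 against 0.5 kPa without 0.5 kPa library 2 or 4 kPa library 2 (highest adjusted p 0.0841 over 17 alternatives), PPIG without those or 4 kPa library 1 (0.134), and PNISR without each 0.5 kPa library, 4 kPa library 1 or 2 or 25 kPa library 4 (0.209). For 0.5 against 25 kPa, LUC7L3 lost its call without each library of those gels or 4 kPa library 1 (0.171) and PNISR without each 0.5 kPa library or 25 kPa library 2 or 4 (0.162). CCNL1 lost its call without 0.5 or 4 kPa library 1 or 2 or each 25 kPa library (0.457), and PPIG against the midpoint without 7 of the 9 libraries (0.354).

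Of 24 tissue splicing regulators, tested on 25 entries, the 1 call was an entry of MATR3, lower on 4 than on 0.5 kPa (-0.75 ± 0.15, edgeR adjusted p = 0.022). In that comparison 2.05% of all genes were called. MATR3 stands on 2 overlapping entries of the annotation with few counts each, and its other entry was not called, so its value is uncertain. The call was lost without each 0.5 kPa library or 4 kPa library 2 (highest adjusted p 0.125). Among 19 genes of NMD and the exon junction, UPF2, a core factor of NMD, was the 1 called. It had 51.5, 45.2 and 47.3 CPM in the 4 kPa libraries, against 64.6, 67.3 and 68.2 CPM in the 0.5 kPa libraries (-0.47 ± 0.08, edgeR adjusted p = 0.00844), and it was also called against the midpoint (-0.42 ± 0.07, adjusted p = 0.0223). Without library 2 of either the 4 or the 0.5 kPa gel the first call was lost (highest adjusted p 0.0714), and without these or 25 kPa library 3 or 4 so was the second (0.238). UPF2 had 55.0, 65.9 and 63.5 CPM in the 25 kPa libraries, and the difference for 4 against 25 kPa was -0.36 ± 0.08 (adjusted p = 0.0632).

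**Figure D5:**
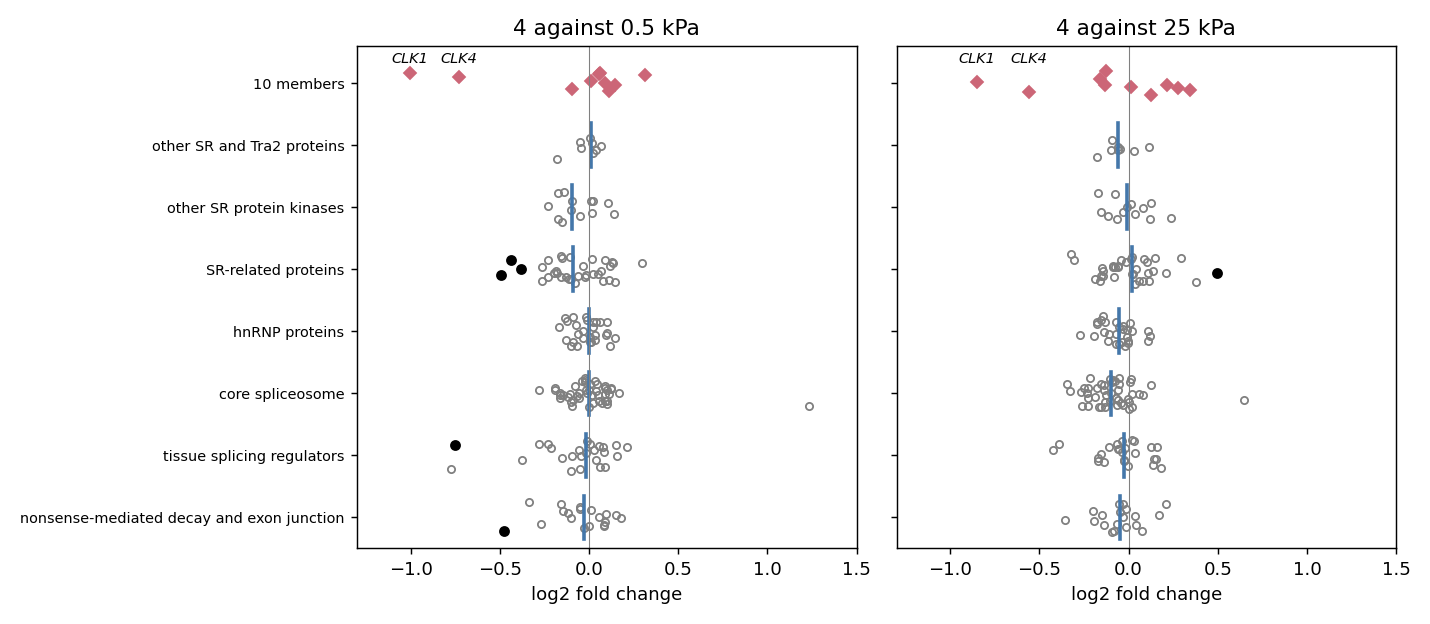
Log2 difference of the 10 genes (diamonds) and of each gene in the 7 lists of splicing genes (circles; filled where called) for 4 against 0.5 kPa and 4 against 25 kPa, with the median of each list as a bar. CLK1 at -1.0 and -0.85 lies below every gene of the 7 lists in both panels; the circle at 1.23 is U2AF1, which has an SE of 0.99.

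Heat shock is known to change the splicing of CLK1, and growth factor signals the phosphorylation of SR proteins, so genes of both responses were counted beside the members. Of 30 immediate early genes, 17 were called higher and none lower for 4 against 0.5 kPa, beside 1.13 and 0.924% of all genes. For 4 against 25 kPa 18 were called higher and none lower, beside 0.435 and 0.465%. The median log2 differences were 0.73 and 0.79, against -0.01 and -0.01 over all genes. This list was chosen with earlier results of these libraries known, so the counts are a description. CTGF, a target of the mechanosensitive factors YAP and TAZ, had 41.9, 39.5 and 48.7 CPM in the 0.5 kPa libraries, 276, 266 and 267 CPM in the 4 kPa libraries and 87.4, 90.6 and 96.0 CPM in the 25 kPa libraries. FOS, a component of AP-1, had 20.4, 23.7 and 17.9 CPM in the 0.5 kPa libraries, 59.2, 62.8 and 59.8 CPM in the 4 kPa libraries and 11.1, 10.8 and 15.6 CPM in the 25 kPa libraries. These genes thus moved with the 4 kPa gel in the direction opposite to CLK1, and their part in the levels of the 10 genes was not tested.

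Others of the immediate early list rose likewise, with log2 differences for 4 against 0.5 kPa and 4 against 25 kPa of 3.26 and 3.20 for FOSB, 2.04 and 1.22 for DUSP1, a phosphatase of MAP kinases, 1.77 and 2.27 for EGR1 and 1.54 and 0.83 for CYR61 (edgeR adjusted p at most 6.67e-05 in each). For 0.5 against 25 kPa the list was divided, with 2 called higher (EGR1 and FOS) and 3 lower (CTGF, CYR61 and DUSP1), where 6.69% of all genes were called. EGR1 (0.50, adjusted p = 0.0112, edgeR) lost this call without 0.5 kPa library 2 (highest adjusted p 0.0675).

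Of the 23 heat shock genes, 1, 1 and 4 were called for 4 against 0.5 kPa, 4 against 25 kPa and 0.5 against 25 kPa, beside the 2.05, 0.9 and 6.69% of all genes. At an unadjusted p under 0.05 there were 4, 8 and 10, beside 13.7, 14.8 and 22.9% of all genes. Negative log2 differences were held by 18 of the 23 for 4 against 25 kPa (median -0.16, against -0.01 over all genes) and by 21 for 0.5 against 25 kPa (median -0.17, against 0.00). Their part in the levels of the 10 genes was not tested. For 4 against 0.5 kPa only CRYAB, a small heat shock protein, was called (0.73 ± 0.12, edgeR adjusted p = 0.00761), and without 0.5 kPa library 2 this call was lost (highest adjusted p 0.0656 over all alternatives). For 4 against 25 kPa only CIRBP, a cold-inducible RNA-binding protein, was called (0.41 ± 0.09, edgeR adjusted p = 0.0468). For 0.5 against 25 kPa CIRBP was higher (0.49 ± 0.09) and CRYAB (-0.95 ± 0.12), DNAJB4 (-0.45 ± 0.09) and HSF2 (-0.29 ± 0.07) were lower. The calls of CIRBP for 4 against 25 kPa and of DNAJB4 and HSF2 were lost without single libraries, among them 25 kPa library 3 or 4, with a highest adjusted p of 0.462, 0.108 and 0.218.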

How the data were processed

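Poly(A) RNA of 9 libraries was sequenced. The submitters' processing notes name bcl2fastq, FastQC 0.11.5, HISAT2 2.1.0 and hg38, while counter and strand setting are not stated. The authors deposited raw read counts per gene, gene FPKM (counts scaled by library total and merged exon length) and transcript FPKM. They also deposited estimated counts per transcript, which sum to 3.55 to 3.58 times the gene counts. In all, 3 columns matched no sample and were not used. Lengths behind FPKM equalled merged GENCODE version 29 exons within 0.5% for 7637 of 7855 genes.

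Gene counts were fitted with edgeR 4.0.16 in R 4.3.3 (TMM scaling, filterByExpr, robust quasi-likelihood F test) on all 9 libraries and 16335 genes, with Benjamini-Hochberg adjustment and a threshold of 0.05. CPM are TMM-scaled. Transcripts with a mean of at least 0.5 FPKM, in genes with at least 2 such, were compared by limma 3.58.1 on log2 ratios with a pseudocount of 0.1 FPKM, a scale that understates the change of low transcripts. Both fits were run on simulated data. The simulated transcript shifts were large and lay only in transcripts with a spread at or below the median. They therefore do not show how well shifts in noisier transcripts are found. Separate cultures per library are not stated in the labels, so p-values measure only the spread between these libraries.

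The 10 genes and the 10 lists (7 of splicing genes, and immediate early genes, heat shock genes and cell markers) were chosen with earlier results of these data known. Named were all 10 genes, their transcripts with at least 10% of the gene, of each list up to 4 called genes with the smallest adjusted p per comparison, and the 5 genes of at least 5 CPM most like CLK1. U2AF1, SRSF11, SRSF4, SRPK1, SRPK2, PRPF4B, DYRK1A, SRSF2-205 and the transcripts CLK1-201 and SRSF7-201 fall outside or beside that rule, and the markers were listed to check the cell line. Alternatives were RLE or upper-quartile scaling, no count filter, DESeq2 1.42.0, limma on log2(FPKM + 1), only the gels compared, a replicate block, each library left out, and, for transcripts, other pseudocounts, filters and transcript counts. Leaving out both replicate 3 libraries was chosen after seeing the data.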

Additional observations from a re-analysis of the deposited data

How the results depend on the processing

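Of the 10 genes, 3, 2, 0 and 3 were called for 4 against 0.5 kPa, 4 against 25 kPa, 0.5 against 25 kPa and 4 kPa against the midpoint. Leaving out each library in turn gave 2 to 3, 1 to 4, 0 to 1 and 1 to 3. For 4 against 25 kPa the count was 4 with DESeq2 (SRSF5 and SRSF6 added), 4 without the replicate 3 libraries of 0.5 and 4 kPa, 3 with no count filter, and 1 with limma on log2(FPKM + 1) or with only the libraries of the gels compared (CLK4 lost). For 0.5 against 25 kPa it was 1, SRSF5, with upper-quartile scaling, DESeq2, only the libraries of the gels compared, or without both replicate 3 libraries; for 4 against 0.5 kPa it was 2 with only the gels compared. On log2(FPKM + 1) CLK4 had -0.48 against 0.5 kPa and -0.33 against 25 kPa, a scale that shrinks low genes. No member transcript was called in any alternative except when 1 library was left out, with 0 to 0, 0 to 1, 0 to 1 and 0 to 1. The midpoint calls of SRSF6 and CLK4 were lost without 4 kPa library 2, and that of SRSF6 in all left-out fits but that without 0.5 kPa library 3.

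Deviations of same-numbered libraries correlated at -0.01, 0.14 and 0.141 between 4 and 0.5 kPa and at -0.058 and -0.231 between 4 and 25 kPa. Between 0.5 and 25 kPa the values were 0.024 and 0.091. Libraries 2 and 3 of 4 and 0.5 kPa, and library 3 of 0.5 and 25 kPa, each matched their own number best. Whether libraries of the same number share a batch cannot be told from these values. With the replicate block the counts were 2, 1, 0 and 1, and no member transcript was called (0). Over all genes the block left 146, 16, 215 and 24 calls, against 335, 147, 1092 and 104 without it. The calls of PPIG, PNISR, CCNL1, MATR3, UPF2, CIRBP, DNAJB4, HSF2, ERBB2, PECAM1 and VWF were lost with the block. So were those of CRYAB for 4 against 0.5 kPa and of LUC7L3 for 0.5 against 25 kPa. The block was fitted with the replicate number of the titles. Only the 25 kPa gel has a library 4, so the block fitted that library by itself. It also left fewer degrees of freedom. Calls lost with the block therefore cannot tell an effect of the replicate from this loss.

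Among single named genes and transcripts no called value turned its sign in any alternative. Of the values of named genes outside the 10, which carry a test, 185 in the alternatives had lost their call and 735 had not changed their side of the threshold. With 3 libraries per gel and low transcript levels, small shifts between transcripts were beyond what these files can show. Scaling moved the median of all genes by less than 0.1 in log2.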
